A study of Homo sapiens with 6 samples.

Results

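Integrins are the receptors through which cells hold on to the extracellular matrix. The genes described here are 10 integrin subunit genes (ITGA2, ITGA3, ITGA4, ITGA5, ITGA6, ITGAV, ITGB1, ITGB3, ITGB4 and ITGB5), chosen by symbol from a table of 60589 genes, in which each symbol has 1 row. The cells were SNU449, an established human hepatocellular carcinoma line. One group had a control siRNA (siControl, 3 libraries) and the other an siRNA aimed at MAD2L1, a spindle checkpoint gene (siMAD2L1, 3 libraries), and both are labelled day 3. All libraries come from 1 cell line, and the labels do not say whether the replicate numbers mark separate cultures. The p-values therefore measure the spread between these libraries, which may be technical.

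An integrin is a pair of an alpha and a beta subunit, both of which cross the membrane. The outer parts bind matrix proteins such as fibronectin, laminin or collagen, and the inner tails bind adaptors such as talin and kindlin, which link the receptor to actin. The beta 1 chain, ITGB1, pairs with many alpha chains, among them those of a collagen receptor (ITGA2), of laminin receptors (ITGA3, ITGA6), of the main fibronectin receptor (ITGA5) and of a receptor for fibronectin and VCAM1 (ITGA4). The alpha V chain, ITGAV, pairs with ITGB1, ITGB3 or ITGB5 and binds ligands with an RGD tripeptide, while ITGB4 pairs with ITGA6 in hemidesmosomes.

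The tail motifs are shown first because they are what the subunits have in common at the place where the inner machinery attaches. In the GENCODE 29 transcripts (GRCh38) all 6 alpha genes held codons for GFFKR, the conserved motif next to the membrane. It began at codon 1157 of 1181 in ITGA2, 1017 of 1051 in ITGA3, 1003 of 1032 in ITGA4, 1024 of 1049 in ITGA5, 1040 of 1073 in ITGA6 and 1019 of 1048 in ITGAV. In all 6 an intron interrupts the stretch in the genome. The coding bases run 5′ to 3′, with the motif in capitals.

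ITGA2: aagctcGGCTTCTTCAAAAGAaaatat
ITGA3: aagtgcGGCTTCTTCAAGCGAgcccgc
ITGA4: aaggctGGCTTCTTTAAAAGAcaatac
ITGA5: aagcttGGATTCTTCAAACGCtccctc
ITGA6: aagtgtGGTTTCTTCAAGAGAaataag
ITGAV: aggatgGGCTTTTTTAAACGGgtccgg

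Among the beta genes, the last 80 codons of ITGB1, ITGB3 and ITGB5 held NPxY (x is any residue), the kind of motif to which talin binds. ITGB1 held 2, at chr10:32901612-32901635 and chr10:32901576-32901599 on the minus strand. ITGB3 held 1, at chr17:47310139-47310162 on the plus strand, and ITGB5 held 1, at chr3:124763695-124763718 on the minus strand. A search of the last 1200 codons of ITGB4, which has a much longer tail, found no match to these letters. The coding bases are given 5′ to 3′ on the gene's strand, with the motif in capitals.

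ITGB1, codon 780 of 798: ggtgaaAATCCTATTTATaagagt
ITGB1, codon 792 of 798: gtggtcAATCCGAAGTATgaggga
ITGB3, codon 770 of 788: gccaacAACCCACTGTATaaagag
ITGB5, codon 771 of 799: gcttcaAATCCATTATACagaaag

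Values are TPM, which are scaled by transcript length and give every library the same sum, so levels of different genes can be set side by side. The read depth behind them is unknown. In siControl ITGB1 was the most abundant of the 10 mRNAs, at 780.2, 863 and 772 TPM, followed by the laminin receptor chain ITGA3, at 654, 727 and 603.5 TPM. ITGB5 came next, at 150.8, 174 and 146 TPM. ITGA5 (109, 132 and 95.4 TPM) and ITGB3 (103, 116 and 87.9 TPM) overlapped each other.

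Below these, ITGB4 measured 53.1, 69.0 and 48.3 TPM and ITGA6 21.6, 25.3 and 23.25 TPM. ITGAV (18.8, 19.7 and 15.0 TPM) and ITGA2 (17.45, 19.7 and 14.5 TPM) overlapped each other. ITGA4 was lowest, at 4.13, 4.33 and 3.97 TPM. The other neighbours in this order did not overlap. In siMAD2L1 the order of the means was ITGB1, ITGA3, ITGB3, ITGA5, ITGB5, ITGA2, ITGB4, ITGAV, ITGA6 and ITGA4; ITGB1 overlapped ITGA3, ITGB3 overlapped ITGA5, and from ITGA2 to ITGA6 each gene overlapped the next.

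**Figure D1:**
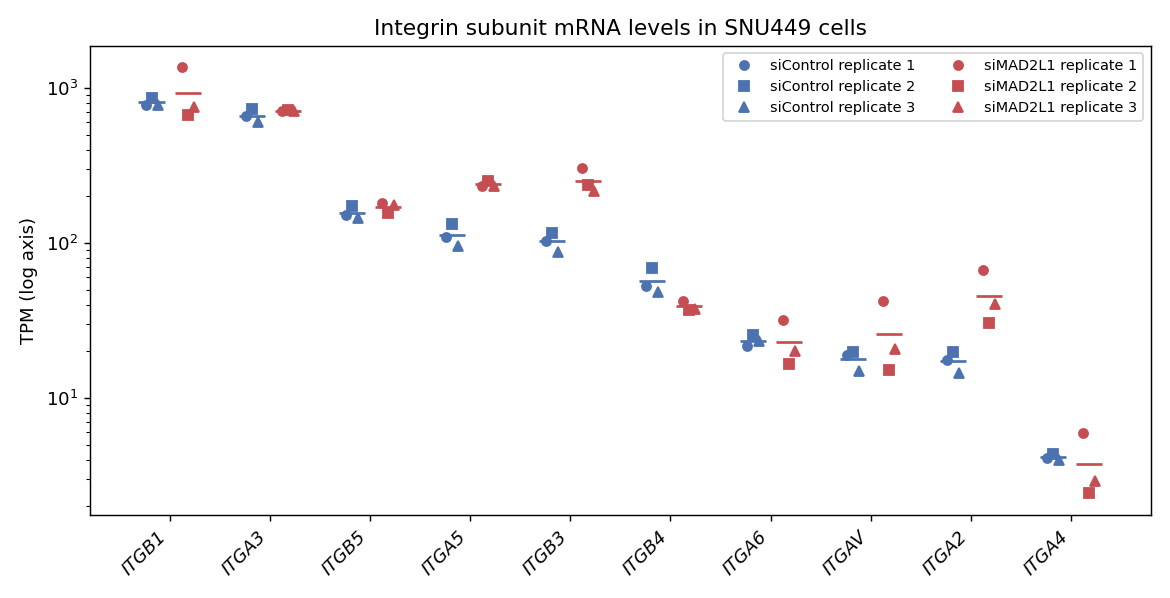
TPM on a log axis of the 10 integrin subunit genes in each of the 6 libraries; blue is siControl, red is siMAD2L1, marker shapes are replicate numbers and horizontal lines are group means (n = 3). All siMAD2L1 points lie above all siControl points for ITGA5, ITGB3 and ITGA2 and below them for ITGB4. The highest library is siMAD2L1 replicate 1 for ITGB1, ITGB3, ITGB5, ITGAV, ITGA2, ITGA4 and ITGA6.

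MAD2L1 itself measured 14.5, 13.7 and 13.9 TPM in siControl and 4.47, 0.795 and 2.40 TPM in siMAD2L1 replicates 1, 2 and 3 (log2 fold change -2.22, limma adjusted p = 0.0105). The adjusted p was 0.0597, 0.0547 and 0.0572 without siControl replicate 1, 2 or 3. All 3 titles name MAD2L1, but the treatment field names MAD2L2 and MAD2L3 for siMAD2L1 replicates 2 and 3. MAD2L2 measured 123, 154 and 137.9 TPM in siMAD2L1 and 150.1, 146 and 137.9 TPM in siControl (limma adjusted p = 0.698). Genes above 0 numbered 24056 to 24258 in siControl and 22514 to 23630 in siMAD2L1, and mitochondrially encoded genes took 15.2% to 15.35% and 9.21% to 10.9% of the TPM. The 10 hepatocyte markers summed to 14.8 to 18.8 TPM in siControl and 8.21 to 14.4 TPM in siMAD2L1. Of them 4 reached a mean of 1 TPM, TF, ASGR1, SERPINA1 and AFP. TF was lower in every siMAD2L1 library (7.12 to 10.9 TPM in siControl, 3.48 to 4.44 TPM in siMAD2L1), while ASGR1, SERPINA1 and AFP overlapped. APOB and TTR were listed at 0 in all 6 libraries and ALB never exceeded 0.451 TPM. A scaling without mitochondrial and the 20 highest genes gave log2 fold changes of 1.05 for ITGA5, 1.24 for ITGB3 and 1.26 for ITGA2 (limma adjusted p = 0.002835, 0.003085 and 0.0227). For ITGB4 it gave -0.57 (limma adjusted p = 0.0383). Apart from that scaling, the part of these differences between the groups in the results that follow was not tested.

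All 10 integrin genes reached a mean of 1 TPM and were tested. In siMAD2L1 3 rose, ITGA5, ITGB3 and ITGA2, and none fell, at a limma adjusted p under 0.05 (at an unadjusted p under 0.05 the counts were 3 higher and 1 lower, ITGB4). Of all 14790 genes tested 9.78% were called, 3.55% higher and 6.23% lower. The share of all genes at an unadjusted p under 0.05 is larger than this and was not counted. The unadjusted counts, here and for the lists below, therefore have no background beside them. The groups did not overlap for 4 of the 10 genes, against 32.8% of all genes tested. The median log2 fold change was 0.13 over the 10 genes and -0.08 over all genes tested. In bulk RNA, a change in the share of cells that express a gene and a change in its RNA per cell cannot be told apart. Platelet and leukocyte genes were read beside these, since ITGB3 and ITGA4 are best known from such cells. GP9, PF4 and CD3E were listed at 0 in every library and PTPRC at up to 0.06 TPM. The 5 platelet markers summed to 2.27 to 3.18 TPM in siControl and 1.23 to 1.95 TPM in siMAD2L1. The 6 leukocyte markers summed to 69.7 to 77.2 TPM and 128.5 to 149.6 TPM, most of it CD68, a lysosomal protein gene (63.15 to 69.8 and 124.8 to 144.5 TPM). CD14, a monocyte gene, went the other way (5.23 to 11.25 and 2.90 to 4.43 TPM).

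ITGA5 (ENSG00000161638, chr12:54395261-54419460, minus strand, GRCh38), the alpha chain of the main fibronectin receptor, measured 231, 253 and 233 TPM in siMAD2L1 replicates 1, 2 and 3. All 3 lay above the highest siControl library (132 TPM), and they lay close together. The siControl mean was 112 ± 18.3 TPM and the siMAD2L1 mean 239 ± 11.9 TPM (SD, n = 3 each), a 2.13-fold difference. On the log2(TPM + 1) scale, on which all fold changes here are differences of group means, this was 1.10 (SE 0.1175, limma adjusted p = 0.002555; exact two-sided permutation p = 0.1, the smallest that 3 libraries against 3 can give). With each library left out in turn the call held 6 times of 6, with limma adjusted p from 0.00470 to 0.0230.

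ITGB3 (ENSG00000259207, chr17:47253846-47311816, plus strand) encodes the beta chain that pairs with ITGAV, and in platelets with ITGA2B. It measured 305, 236 and 216 TPM in siMAD2L1 replicates 1, 2 and 3. Each was above the highest siControl value of 116 TPM, and replicate 1 was highest. The means were 102 ± 14.0 and 252 ± 46.5 TPM (SD, n = 3 each), a 2.47-fold difference at a log2 fold change of 1.29 (SE 0.147, limma adjusted p = 0.00324; exact permutation p = 0.1). With each library left out the limma adjusted p lay between 0.00321 and 0.0257. ITGA2B, the platelet partner, measured 1.62, 2.26 and 2.20 TPM in siControl and 0.870, 0.863 and 1.41 TPM in siMAD2L1. A low readthrough gene overlaps ITGB3 on its own strand.

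ITGA2 (ENSG00000164171, chr5:52989326-53094779, plus strand), the alpha chain of a collagen receptor, measured 66.5, 30.2 and 40.4 TPM in siMAD2L1 replicates 1, 2 and 3. The groups did not overlap, but the siMAD2L1 libraries were spread widely. The means were 17.2 ± 2.59 and 45.7 ± 18.7 TPM (SD, n = 3 each), a 2.65-fold difference at a log2 fold change of 1.29 (SE 0.261, limma adjusted p = 0.0225; exact permutation p = 0.1). The call ended without siControl replicate 1, 2 or 3 (limma adjusted p = 0.0883, 0.0688 and 0.1002) and without siMAD2L1 replicate 3 (0.0690). Without siMAD2L1 replicate 1 the log2 fold change was 0.99 and the call held (limma adjusted p = 0.0125).

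ITGA2 had the largest fitted log2 change of the 10, by a margin far under its SE: it was 1.292 against 1.288 for ITGB3. Without siMAD2L1 replicate 1 ITGB3 (1.14) and ITGA5 (1.12) stood above ITGA2 (0.99), and with the length trend removed ITGB3 led. By the rule for named genes ITGA2 was the one compared with others. The 3 other tested genes with the most similar pattern, by the root mean square distance between centred log2(TPM + 1) profiles over the 6 libraries, were FRMD6 (distance 0.042), the small GTPase gene RND3 (0.16) and GREM1, which encodes an antagonist of BMP signals (0.17). FRMD6 rose from a mean of 11.3 to 30.7 TPM (limma adjusted p = 0.0282), RND3 from 73.5 to 156 TPM (0.0380) and GREM1 from 20.03 to 47.4 TPM (0.00651). They were picked for their likeness, so that they rose is no separate result.

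ITGB4 (ENSG00000132470, chr17:75721328-75757818, plus strand), the hemidesmosome chain, measured 42.5, 37.0 and 37.5 TPM in siMAD2L1. All 3 lay below the lowest siControl library, 48.3 TPM. The means were 56.8 ± 10.8 and 39.0 ± 3.02 TPM (SD, n = 3 each), and the log2 fold change of -0.52 (SE 0.139) did not pass the test (limma adjusted p = 0.0562; exact permutation p = 0.1). Without siMAD2L1 replicate 1 it passed, at -0.58 (limma adjusted p = 0.0423). GALK1 overlaps ITGB4 on the opposite strand, and GENCODE places antisense genes opposite ITGA2, ITGA5, ITGA6, ITGAV, ITGB3 and ITGB5. The strand setting of the authors' counting was not stated in the labels, so reads of such partners may be mixed.

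**Figure D2:**
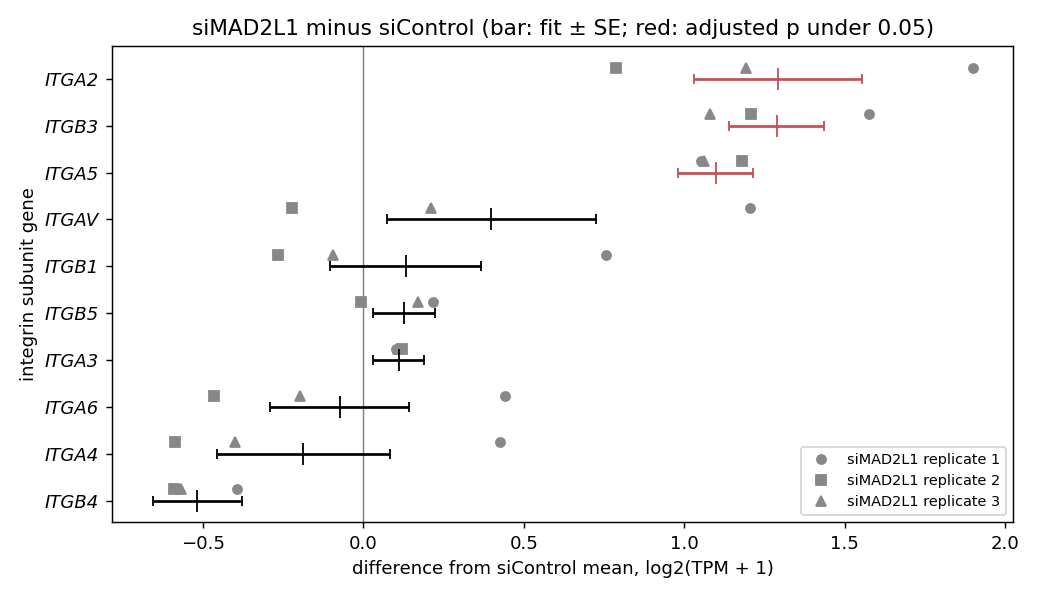
Difference of siMAD2L1 from the siControl mean, in log2(TPM + 1), for the 10 integrin genes; grey markers are the 3 siMAD2L1 libraries, bars are the fitted log2 fold change ± SE, and red bars mark an adjusted p under 0.05. The libraries lie close together for ITGA5 (1.05 to 1.18) and ITGA3 (0.10 to 0.12) and far apart for ITGAV (-0.22 to 1.21) and ITGB1 (-0.265 to 0.755), with replicate 1 (circles) farthest to the right in both.

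The beta 1 chain had no common direction. ITGB1 (ENSG00000150093, chr10:32900319-33005792, minus strand) measured 1358, 669 and 753 TPM in siMAD2L1 replicates 1, 2 and 3. Replicate 1 lay above every siControl library and replicates 2 and 3 below every one. With all libraries the log2 change averaged 0.13 (SE 0.234, limma adjusted p = 0.767), and it was -0.18 (limma adjusted p = 0.164) without siMAD2L1 replicate 1. A pseudogene, ITGB1P1, was also counted, at 107 to 309 TPM, so the split of reads between it and ITGB1 is uncertain. ITGAV (ENSG00000138448, chr2:186590065-186680901, plus strand) measured 42.2, 15.1 and 20.7 TPM, with replicates 1 and 3 above the siControl range and replicate 2 inside it. The difference in log2 was 0.40 (SE 0.325, limma adjusted p = 0.481), and -0.01 without replicate 1.

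The laminin chain ITGA6 (ENSG00000091409, chr2:172427354-172506282, plus strand) measured 32.05, 16.6 and 20.2 TPM in siMAD2L1. As for ITGB1, replicate 1 was above and replicates 2 and 3 were below all siControl libraries (-0.07, SE 0.216, limma adjusted p = 0.867; 0.02 with upper-quartile scaling). ITGA4 (ENSG00000115232, chr2:181457202-181536187, plus strand), best known from leukocytes, had the same order at a low level, with 5.91, 2.43 and 2.90 TPM (-0.19, SE 0.269, limma adjusted p = 0.706). Without siMAD2L1 replicate 2 the log2 fold changes of ITGA6 and ITGA4 were 0.12 and 0.01.

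ITGA3 and ITGB5 showed small differences in every library. ITGA3 (ENSG00000005884, chr17:50055968-50090481, plus strand), the most abundant alpha mRNA, measured 708.5, 717 and 712 TPM in siMAD2L1, inside the siControl range (0.11, SE 0.0794, limma adjusted p = 0.420; -0.04 with quantile normalization). ITGB5 (ENSG00000082781, chr3:124761948-124901418, minus strand), an RGD-binding partner of ITGAV, measured 182, 156 and 176 TPM (0.13, SE 0.0965, limma adjusted p = 0.446). For both, a p above the threshold does not show that the levels were equal.

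In siMAD2L1 replicate 1, 9 of the 10 integrin genes lay above the siControl mean of log2(TPM + 1), against 4 in replicate 2 and 6 in replicate 3. ITGA2, ITGA3, ITGA5 and ITGB3 were above it in all 3. The share of all genes tested that lay above it was not counted. The median difference in replicate 1 was 0.02 over all genes tested and 0.60 over the 10. Over all genes with a known length, the difference from the siControl mean rose with transcript length in replicate 1 (Spearman rho 0.23). The rho was -0.07 in replicate 2 and 0.07 in replicate 3. Of the tested genes 2309 have a longest GENCODE transcript over 6 kb, and their median difference from the siControl mean was 0.21 in replicate 1, -0.20 in replicate 2 and -0.09 in replicate 3. For the 1517 genes under 1 kb it was -0.13, -0.11 and -0.21. Genes of 2 to 4 kb had medians of -0.01, -0.14 and -0.12, and genes of 4 to 6 kb 0.11, -0.17 and -0.105. The longest transcripts of the 10 integrin genes run from 3784 nt (ITGB1) to 7869 nt (ITGA2). The part of length in the counts of integrin genes was not tested. With a trend on length removed from each library, ITGA5 (1.157), ITGB3 (1.355) and ITGA2 (1.32) stayed called (limma adjusted p = 0.00242, 0.000728 and 0.00467), and ITGB4 passed at -0.47 (0.0441).

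The mix of subunits was then compared within each library, where the total of the other genes does not enter. ITGA3 held 79.3%, 78.4% and 79.9% of the summed TPM of the 6 alpha genes in siControl and 65.2%, 69.4% and 69.2% in siMAD2L1. ITGA5 held 13.2%, 14.2% and 12.6% in siControl and 21.3%, 24.4% and 22.6% in siMAD2L1. Neither share overlapped between the groups, and the mean ITGA5 share was 9.44 percentage points higher in siMAD2L1. ITGA2 held 2.12%, 2.12% and 1.93% in siControl and 6.12%, 2.92% and 3.92% in siMAD2L1. The alpha sum itself was 836 ± 86.7 TPM in siControl against 1050 ± 31.8 TPM after knockdown (SD, n = 3 each), so the lower ITGA3 share stood beside an ITGA3 level inside the siControl range.

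Of the 4 beta genes, ITGB3 held 9.50%, 9.48% and 8.34% of their summed TPM in siControl and 16.15%, 21.5% and 18.3% in siMAD2L1. ITGB4 held 4.88%, 5.64% and 4.58% in siControl and 2.25%, 3.37% and 3.17% in siMAD2L1. Both shares were apart in all libraries, in opposite directions, but shares of the same sum are not independent. The lowest ITGB4 share, in siMAD2L1 replicate 1, stood beside the highest ITGB4 level of that group (42.5 TPM). ITGB1 measured 1358 TPM in that library. The share of ITGB1 overlapped, at 71.9% ± 1.31 and 65.5% ± 5.74 (SD, n = 3 each; exact permutation p = 0.3). Of the 10 shares 5 reached an exact permutation p of 0.1, which is 0.2 after Benjamini-Hochberg adjustment over the 10, so none could pass at 0.05.

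**Figure D3:**
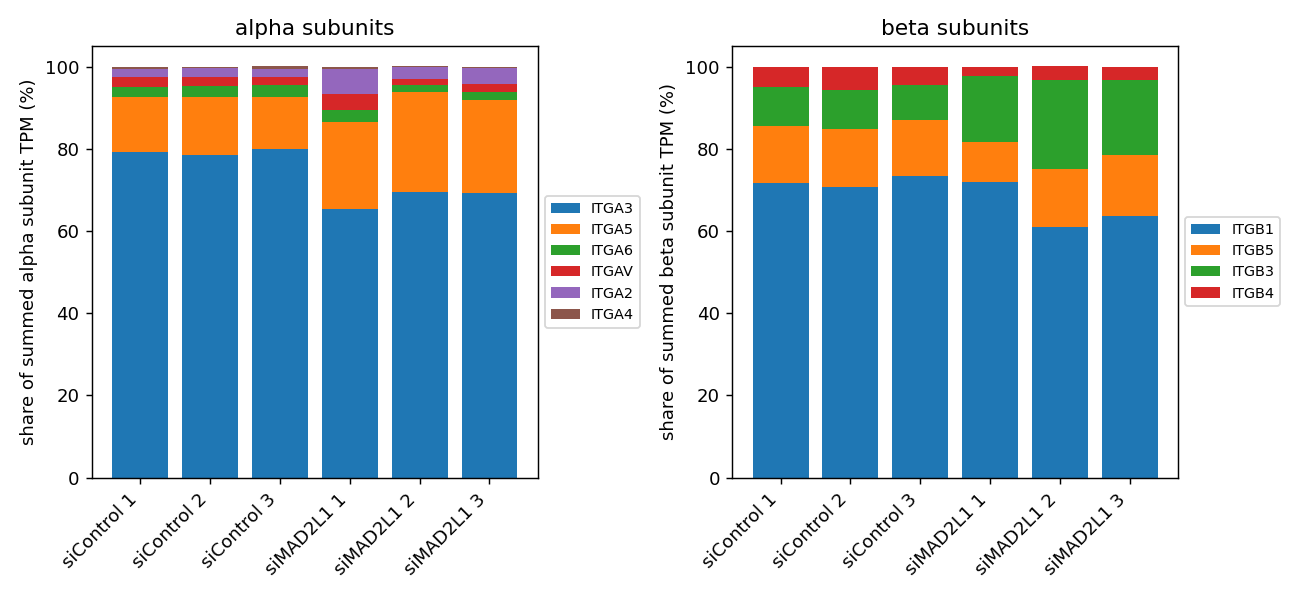
Stacked bars, 1 per library, of the share in percent of each gene in the summed TPM of the 6 alpha genes (left) and of the 4 beta genes (right). The ITGA5 segment spans 12.6% to 14.2% in siControl and 21.3% to 24.4% in siMAD2L1, and the ITGB3 segment 8.34% to 9.50% and 16.15% to 21.5%.

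Among the beta partners of ITGAV, the mRNAs of ITGB3 and ITGB5 changed places, while ITGB1 stayed above both in every library. Of these partners only ITGB3 was called. The ratio of ITGB3 to ITGB5 was 0.685, 0.667 and 0.604 in siControl and 1.68, 1.52 and 1.23 in siMAD2L1, so ITGB3 was the lower of the pair in every siControl library and the higher in every siMAD2L1 library. The ratio of ITGB3 to ITGAV was 5.48, 5.89 and 5.86 in siControl and 7.22, 15.7 and 10.5 in siMAD2L1. The ratio of ITGA5 to ITGA3 was 0.166, 0.181 and 0.158 in siControl and 0.326, 0.352 and 0.327 in siMAD2L1. The ratio of ITGB4 to its partner ITGA6 overlapped, at 2.46, 2.72 and 2.08 in siControl and 1.33, 2.22 and 1.86 in siMAD2L1. Of 9 ratios computed, 5 reached an exact permutation p of 0.1 (0.18 after adjustment over the 9). These are ratios of mRNA, and receptor pairs on the cell surface were not measured.

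Promoters are shown for ITGA2 and ITGA5 because both rose. RefSeq windows (GRCh38.p14, 250 bases before to 50 after a start site) matched 7 of the 10 genes by symbol, ITGA2, ITGA4, ITGA5, ITGA6, ITGAV, ITGB1 and ITGB5, with 12 windows in all. The bases printed lie upstream of every annotated exon of the gene, at chr5:52989102-52989325 (plus strand) for ITGA2 and chr12:54419461-54419516 (minus strand) for ITGA5. Capitals mark a GC box (GGGCGG on either strand), the kind of site that Sp1 binds.

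ITGA2: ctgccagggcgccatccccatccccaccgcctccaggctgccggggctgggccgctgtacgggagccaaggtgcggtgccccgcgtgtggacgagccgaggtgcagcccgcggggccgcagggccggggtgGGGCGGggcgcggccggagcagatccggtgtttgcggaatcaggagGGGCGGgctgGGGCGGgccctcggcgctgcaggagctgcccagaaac
ITGA5: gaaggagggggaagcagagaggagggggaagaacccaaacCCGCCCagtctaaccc

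Both strands were searched for 5 motifs. A GC box was found in 8 of the 12 windows, from ITGA2, ITGA5, ITGA6, ITGB1 and ITGB5, and in 45% of 35116 RefSeq windows of the same length. An AP-1 motif (TGANTCA) was found in 1 window, that of ITGA5, starting 6 bases before the RefSeq start site, and in 7.71% of all windows. A TEAD motif (GGAATG) was found in the windows of ITGA5 and ITGB1 and in 14% of all windows. The AP-1 and TEAD matches of ITGA5 lie within its GENCODE gene, which starts at chr12:54419460, upstream of the RefSeq start site. They are therefore not in the bases printed. A TATA box (TATAAA) was found in 1 window each of ITGA6 and ITGB1 (11.5% of all windows), and a CCAAT box in 1 of ITGB1 (34.6%). The GC box was thus in windows of genes that were called and of genes that were not, and a match describes letters only.

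The other 16 integrin subunit genes were low, with 6 at a mean of 1 TPM or more. Of these, 2 had an unadjusted p under 0.05, ITGAE and ITGA2B, both lower in siMAD2L1. None was called by limma, against 9.78% of all genes tested, and the median log2 fold change was -0.10. The 2 most abundant were ITGAE and ITGA1. ITGAE, the alpha chain of the E-cadherin receptor of lymphocytes, measured 15.4, 16.7 and 17.0 TPM in siControl and 10.7, 13.6 and 10.3 TPM in siMAD2L1 (-0.48, limma adjusted p = 0.0628). ITGAE passed in 4 of 21 alternatives, with a filter at 5 TPM (0.0496), without mitochondrial and the 20 highest genes (0.0431), with library weights (0.00545) and without siMAD2L1 replicate 2 (0.0472). ITGA1, a collagen receptor chain like ITGA2, measured 5.51, 8.79 and 12.9 TPM and 22.8, 10.2 and 9.93 TPM, with overlapping groups (0.57, limma adjusted p = 0.365). ITGB6, which makes another RGD receptor with ITGAV, stayed under 0.6 TPM in every library.

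Among 14 tested genes that bind integrin tails or switch their state, such as talins, kindlins and RAP1, the median was 0.13. None was called by limma, against 9.78% of all genes tested. At an unadjusted p under 0.05 there were 2 higher (the kindlin gene FERMT2 and RAP1B) and 2 lower (the talin gene TLN1 and APBB1IP), all named after their values were seen. The count of 0 depends on the setting: 2 were called higher with upper-quartile scaling and with the length trend removed, and 4 higher and 2 lower with library weights. FERMT2 had means of 23.8 and 39.35 TPM (0.66, limma adjusted p = 0.0860) and TLN1 of 96.7 and 81.4 TPM (-0.25, limma adjusted p = 0.102). The 2 most abundant were FLNA, an actin crosslinker that binds beta tails, with means of 1313 and 1422 TPM (0.11, limma adjusted p = 0.502; -0.04 with quantile normalization), and SLC3A2, the CD98 heavy chain, with 382 and 417 TPM (0.12, limma adjusted p = 0.444).

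Of 28 tested adhesion complex and signalling genes, 4 were called higher and 3 lower (median -0.09), against 3.55% and 6.23% of all genes tested. The 4 include TNS1, which reached the mean of 1 TPM only through its siMAD2L1 libraries, so its call is given no weight. TNS3, a tensin that binds beta tails, fell from 53.8 ± 2.66 to 21.5 ± 2.15 TPM (SD, n = 3 each; log2 fold change -1.29, limma adjusted p = 0.00104). TNS3 was called with each library left out in turn. TNS1, another tensin, measured 0.512, 0.609 and 0.379 TPM in siControl and 2.62, 3.05 and 2.01 TPM in siMAD2L1, given as levels only.

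ZYX, the LIM protein zyxin of mature adhesions, rose from 183 to 284 TPM (0.63, limma adjusted p = 0.00894), and its call ended without siControl replicate 1 (0.0583) or 3 (0.0516). KANK2, which binds talin at the rim of adhesions, fell from 20.9 to 11.7 TPM (-0.80, limma adjusted p = 0.00759; 0.0540 without siControl replicate 1). The remaining calls, named after their values were seen, were the actin regulator VASP (0.41, limma adjusted p = 0.0181), the adaptor pseudokinase ILK (0.33, 0.0282) and the caveolar coat gene CAV1 (-0.48, 0.0234). Each of these lost its call in at least 4 of the 6 fits with a library left out.

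Of 25 tested matrix ligands, 2 rose and 3 fell (median -0.11), against 3.55% called higher and 6.23% called lower of all genes tested. LAMB3, a chain of laminin-332, a ligand of the receptors with ITGA3 and ITGA6, rose from 17.1 ± 1.615 to 34.2 ± 2.33 TPM (SD, n = 3 each; 0.96, limma adjusted p = 0.00324). COL1A2, a collagen I chain and so part of a ligand of the ITGA2 receptor, fell from 389 ± 19.7 to 232 ± 11.5 TPM (-0.74, limma adjusted p = 0.00187). Both calls held with each library left out in turn. LAMA4 fell from 12.3 to 7.94 TPM (-0.57, limma adjusted p = 0.0298) and NID1 rose from 44.1 to 62.3 TPM (0.49, 0.0278). THBS1, named after its value was seen, fell from 29.4 to 21.2 TPM (-0.45, 0.0457). With a library left out the highest limma adjusted p was 0.137 for LAMA4, 0.105 for NID1 and 0.181 for THBS1. FN1, the fibronectin gene and ligand of ITGA5, measured 57.7, 50.95 and 57.4 TPM in siControl and 64.3, 59.0 and 46.5 TPM in siMAD2L1, with overlapping groups.

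Of 11 tested tetraspanin and hemidesmosome genes, 1 rose and 1 fell (median 0.01). The shares of all genes tested were 3.55% called higher and 6.23% called lower. TSPAN14, a tetraspanin that escorts the protease ADAM10, fell from 129 ± 4.20 to 77.4 ± 2.34 TPM (SD, n = 3 each; -0.73, limma adjusted p = 0.00188) and was called with each library left out. CD63 rose from 1117 to 1336 TPM (0.26, limma adjusted p = 0.0457), but 13 of 21 alternatives ended the call: it was 0.10 with quantile normalization (limma adjusted p = 0.323), and the adjusted p was 0.164 with upper-quartile scaling and up to 0.147 with a library left out. CD151, the tetraspanin partner of ITGA3, had means of 296 and 307 TPM (0.05, limma adjusted p = 0.710).

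Of 15 tested genes for integrin endocytosis and recycling, 4 were higher and 0 lower at an unadjusted p under 0.05 (median 0.24). Against 3.55% called higher and 6.23% called lower of all genes tested, 3 rose and none fell by limma. They were the clathrin adaptor DAB2, from 23.3 to 34.05 TPM (0.54, limma adjusted p = 0.0338), the recycling GTPase gene ARF6, from 54.7 to 70.95 TPM (0.37, 0.0269), and RAB11A, from 173 to 213.5 TPM (0.30, 0.0497). RAB11A was called in 0 of the 6 fits that omit a library (limma adjusted p 0.0528 to 0.166), and ARF6 and DAB2 in 2 each (limma adjusted p up to 0.111 and 0.137).

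**Figure D4:**
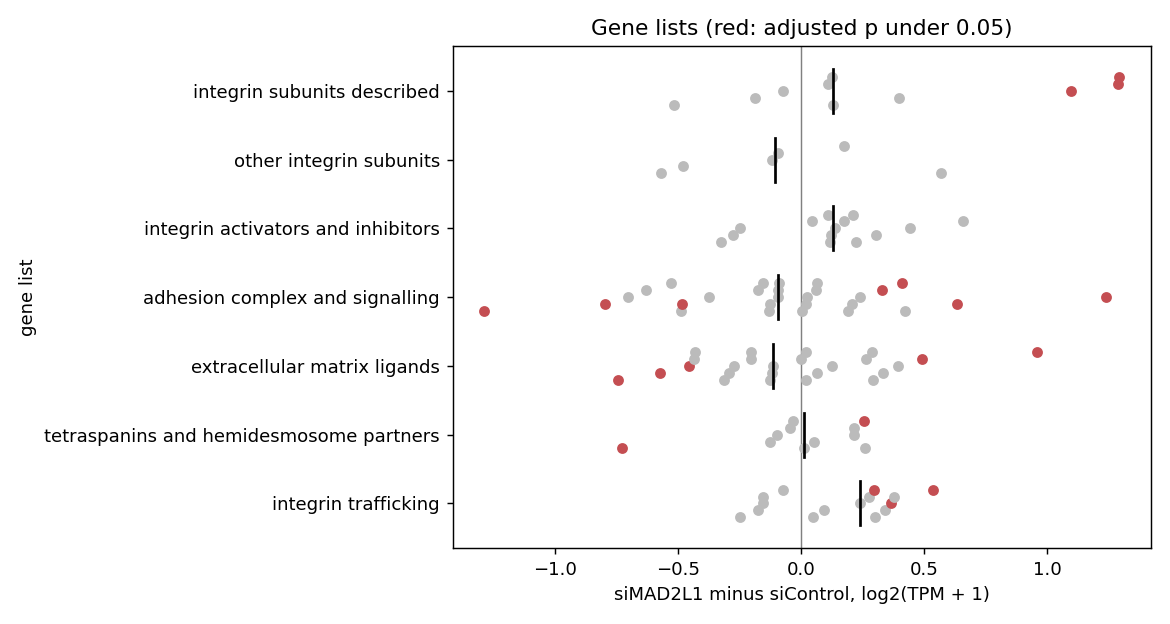
Log2 fold change of every tested gene in the 10 integrin subunit genes and 6 lists of related genes (siMAD2L1 minus siControl, log2(TPM + 1)); red points have an adjusted p under 0.05 and black ticks are list medians. The 3 red integrin points lie at 1.10 to 1.29, TNS3 is the leftmost point at -1.29, and the list medians lie between -0.11 and 0.24. TNS1 is drawn red at 1.24, but its call is given no weight.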

How the data were processed

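RNA was sequenced from 6 libraries of SNU449 cells (3 siControl, 3 siMAD2L1), made from total RNA with an NEBNext Ultra kit, per the labels' protocols. The deposited values are TPM as the authors computed them. fastp, HISAT2, DESeq2 1.16.1 and build hg38 are named in the submitters' processing notes; the strand setting, counter and annotation were not given in the sources used here. TPM keeps no read depth, so no counting error is given. Groups follow the sample titles.

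Genes with a mean of at least 1 TPM over the 6 libraries (14790 of 60589) were tested on log2(TPM + 1) with limma 3.58.1 (R 4.3.3, intensity trend, no covariates), two-sided. Calls are at a Benjamini-Hochberg adjusted p under 0.05 over all genes tested. The pseudocount of 1 understates changes of low genes. Single values had exact permutation tests. Python 3.11.15 and GENCODE 29 gave positions, lengths and coding bases.

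The 10 genes, the lists and the tests were chosen with earlier results of these data known. Named genes are MAD2L1, MAD2L2, the 10 genes and the 3 genes nearest to the integrin gene with the largest change. From each list up to 4 called genes were named by size of change, or the 2 most abundant where none was called. Other list genes are said to be named after their values were seen, except FN1, CD151 and ITGB6, which also fall outside this rule. Markers and rows that could share reads with integrin genes were read apart from it. Alternatives were other pseudocounts, filters, scalings, limma settings, thresholds, a replicate block and left-out libraries.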

Additional observations from a re-analysis of the deposited data

How the results depend on the processing

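ITGA5 and ITGB3 were called under all 21 alternatives (log2 fold changes 0.99 to 1.22 and 1.13 to 1.58). ITGA2 ranged from 0.99 to 1.90 and also lost its call without a filter (limma adjusted p = 0.0838), without the trend (0.0517) and at an adjusted p of 0.01. The count of called integrin genes went from 3 to 5, all higher, with siMAD2L1 replicate 1 alone against siControl, where ITGAV (1.21) and ITGB1 (0.76) joined; that lone library is assumed to vary like the controls. With a library left out the count of higher calls stayed between 2 and 3. Lower calls among the 10 went from 0 to 1, ITGB4, with a filter at 5 TPM, without mitochondrial and the 20 highest genes, with the length trend removed and with library weights, and lay between 0 and 1 with a library left out.

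Calls over all genes went from 1446 to 727 without a filter, 952 without the trend, 4860 with library weights and 359 at an adjusted p of 0.01, and they spanned 326 to 2422 when single libraries were dropped, lowest without siControl replicate 1 and highest without siMAD2L1 replicate 1. Calls in the lists of related genes went from 17 to 10, 9, 42 and 6 in those settings, and spanned 4 to 24 over the same dropped libraries, lowest and highest at the same ones. The 17 include TNS1, whose call is given no weight. Of the called genes 36.3% were higher, but 58% with upper-quartile scaling, 49.5% with quantile normalization and 56% with the length trend removed. MAD2L1 (-2.22) was not called at an adjusted p of 0.01, and with a library left out it ranged from -2.61 to -1.80.

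Of the 21 alternatives, 12 ended the call of LAMA4, 9 NID1, 11 THBS1, 9 DAB2, 8 ARF6, 18 RAB11A, 10 ILK, 6 VASP and 9 CAV1. Signs turned for genes that were not called, and the cause was not tested. MAD2L2 was 0.034 with upper-quartile scaling and 0.039 with the length trend removed. ITGA3 (-0.039) and FLNA (-0.041) turned with quantile normalization, ITGA6 (0.023) with upper-quartile scaling and ITGB1 (-0.055) with library weights. With a library left out the log2 fold change spanned -0.147 to 0.012 for MAD2L2, -0.492 to 0.013 for ITGA4, -0.331 to 0.122 for ITGA6, -0.00504 to 0.709 for ITGAV and -0.18 to 0.33 for ITGB1. It turned without siMAD2L1 replicate 1 for MAD2L2, ITGAV and ITGB1 and without siMAD2L1 replicate 2 for ITGA4 and ITGA6. With replicate 1 alone ITGA4 (0.426), ITGA6 (0.442), FLNA (-0.0704) and SLC3A2 (-0.0505) turned. The differences in share, with a library left out, were 8.62 to 10.2 percentage points for ITGA5, 8.11 to 10.8 for ITGB3 and -2.33 to -1.76 for ITGB4. ITGA4 and TNS1 were not tested at a filter of 5 TPM.

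The labels state no pairing of the libraries by replicate number. Same-numbered libraries correlated in their deviations at 0.02, 0.009 and 0.06, and differently numbered ones at -0.05 to 0.03. With deviations from means of 3 libraries these values cannot exclude a pairing. With the replicate block 868 genes and 9 genes of the related lists were called, and ITGA5 (limma adjusted p = 0.00622), ITGB3 (0.00704) and ITGA2 (0.0358) stayed called.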

Other observations

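Rows that could share reads with the integrin genes were read as values. The ITGB1 pseudogene ITGB1P1 measured 143, 163 and 170 TPM in siControl and 309, 107 and 138 TPM in siMAD2L1, in the same order over the siMAD2L1 libraries as ITGB1, and reads of the 2 genes may be split between them. A readthrough gene on the strand of ITGB3, which overlaps it, measured 1.82, 2.30 and 1.64 TPM in siControl and 4.62, 3.23 and 2.23 TPM in siMAD2L1. ITGA6-AS1, opposite ITGA6, measured 0.284, 0.329 and 0.267 TPM in siControl and 1.02, 0.753 and 0.877 TPM in siMAD2L1, with no overlap between the groups. Without a stated strand setting, reads of ITGA6 and its antisense gene cannot be told apart.

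Other markers of cell state were read as well. The 6 mesenchymal markers did not share a direction. VIM (9128 to 9986 TPM in siControl, 10540 to 11150 TPM in siMAD2L1) and ZEB1 (2.91 to 3.76 and 5.21 to 11.8 TPM) were higher in every siMAD2L1 library, COL1A1 (115.6 to 154 and 90.4 to 105.8 TPM) was lower in every one, and CDH2, SPARC and FN1 overlapped. The epithelial markers, nearly all KRT8 and KRT18, summed to 411 to 427 TPM and 280 to 309 TPM. The 6 endothelial markers summed to at most 1.08 TPM in any library. The part of these levels in the integrin results was not tested.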
